A study of Mus musculus with 4 samples.

Results

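Type 2 cytokine CD4 T cells were CD4 T cells from mouse tumours whose RNA held at least 1 transcript of Il4, Il5 or Il13. They were chosen by counts of unique molecular identifiers (UMIs, each of which tags 1 captured RNA molecule). A barcode was a member when it had at least 1 UMI of Cd3d, Cd3e or Cd3g, a Cd4 UMI, none of Cd8a, Cd8b1, Foxp3 or Ifng, at most 3 UMIs of macrophage genes (Lyz2, C1qa, C1qb, Csf1r), and a UMI of Il4, Il5 or Il13. Of 20137 barcodes kept after filters, 685 were members, 588 in the Tc9 library and 97 in the Tc1 library. Cells of the same gate with no UMI of the 3 cytokines, 2353 in Tc9 and 776 in Tc1, were the comparison cells. The members were thus defined by Il4, Il5 and Il13, whose levels are given as a description.

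The tumours were chimeric tumours of Thy1.2+ wild-type B6 mice that had received Thy1.1+ Pmel-1 T cells polarised as Tc9 or as Tc1, with adjuvant in both groups. Pmel-1 cells are CD8 T cells with a transgenic receptor for a melanocyte antigen, Tc1 cells make interferon-gamma, and Tc9 cells are named for interleukin 9. Tumours of 3 mice were pooled per group on day 30 after tumour inoculation and CD4 T cells were sorted, so that each group had 1 library of RNA and 1 of T cell receptors. Mice within a pool cannot be told apart, so no value has a replicate and no test between groups was possible. All intervals are 95% intervals of counting error only, and those of UMI ratios are too narrow because UMIs of 1 cell are not independent.

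Type 2 helper cells make interleukin 4, interleukin 5 and interleukin 13, which act on B cells, eosinophils and epithelia in allergy and worm infection. The transcription factor GATA3 opens the shared cytokine locus, and the receptor for interleukin 33 (ST2, the product of Il1rl1) lets tissue damage drive these cells. Il4, Il13 and Il5 lie close together on chromosome 11 (GRCm38.p6), at chr11:53612460-53618665, chr11:53631323-53634702 and chr11:53720794-53725103.

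The 2 libraries held 50713493 UMIs in 8449 barcodes (Tc9) and 106053410 UMIs in 13406 barcodes (Tc1). Members were deeper than comparison cells, with medians of 6336.5 against 5158 UMIs in Tc9 and 3873 against 3293 UMIs in Tc1, and shares of cells with a UMI are therefore given after thinning each cell to 2000 UMIs. Thinning left out 6 members and 80 comparison cells in Tc9, and 2 members and 77 comparison cells in Tc1. The 2 RNA libraries shared 148 barcode sequences, among them 8 Tc9 members and 1 Tc1 member. Not all kept barcodes had the UMIs of a CD4 T cell, although CD4 T cells were sorted. Of 8204 kept in Tc9, 7740 had a Cd3 UMI, 4768 of these a Cd4 UMI and 4360 of those no Cd8a or Cd8b1 UMI. Of 11933 kept in Tc1 these numbers were 7452, 2345 and 1802. Macrophage barcodes, with no Cd3 UMI and at least 10 UMIs of the macrophage genes, numbered 24 in the Tc9 library and 2908 in the Tc1 library. Among its members 84.5% of cells had a UMI of a list of macrophage genes, against 75.3% of its comparison cells, while the Tc9 shares were 8.33% and 7.48%.

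The receptor chains of the largest clones are shown because they let single families of cells be followed through the gate. The CDR3 is the stretch of the beta chain (TRB) that is made when V, D and J segments are joined, on chromosome 6. Small letters mark the start and end that CDR3s with the same V or J segment in these libraries commonly shared. The capitals mark the bases between. No reference sequence of the segments was compared, so the capitals can include bases of a segment. In the 3 Tc9 clones and the 2 Tc1 clones with most type 2 cytokine cells the CDR3 sequences were:
Tc9 clone 1, TRBV12-2+TRBV13-2 with TRBJ2-1: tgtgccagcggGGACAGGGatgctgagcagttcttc
Tc9 clone 2, TRBV31 with TRBJ2-4: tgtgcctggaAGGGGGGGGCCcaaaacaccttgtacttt
Tc9 clone 3, TRBV3 with TRBJ1-2: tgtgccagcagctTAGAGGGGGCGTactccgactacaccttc
Tc1 clone 1, TRBV3 with TRBJ1-1: tgtgccagcagctTAAAagaagtcttcttt
Tc1 clone 2, TRBV3 with TRBJ2-1: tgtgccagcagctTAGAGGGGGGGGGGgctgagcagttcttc

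The promoters of the cytokine genes are shown because all members carry a transcript of 1 of them. The RefSeq promoter sequences (GRCm38.p6) were searched over the 250 bases before the start site for AGATAA and for TGATAA, and likewise for AGATAG as well as for TGATAG, forms of the letters that GATA factors bind, on both strands. Each of the 3 genes held 1 match, written in capitals in 60 bases read along the gene's strand, and for Il4 the match was in 1 of 2 promoters, that of a start inside the gene:
Il4, chr11:53617386-53617445, minus strand: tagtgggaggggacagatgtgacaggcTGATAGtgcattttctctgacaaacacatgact
Il5, chr11:53720695-53720754, plus strand: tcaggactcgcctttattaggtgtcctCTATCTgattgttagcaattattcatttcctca
Il13, chr11:53634751-53634810, minus strand: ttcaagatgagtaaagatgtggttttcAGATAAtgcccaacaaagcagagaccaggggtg
In Il5 the letters are those of AGATAG on the other strand. Of 32851 promoters, 26.5% held at least 1 match, so the letters are common and are given as a description only.

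Members made up a larger share of the gate in Tc9 than in Tc1. They were 588 of 2941 gated cells in Tc9 (20%, 18.6 to 21.5) and 97 of 873 in Tc1 (11.1%, 9.10 to 13.4), a difference of 8.88 percentage points (6.19 to 11.4). When each cell was thinned to 2000 UMIs before the cytokine rule was applied, 325 of 2855 Tc9 cells (11.4%) and 57 of 794 Tc1 cells (7.18%) had a cytokine UMI, and the difference was 4.20 points (1.88 to 6.30). The mean share expected over all such draws was 11.5% in Tc9 and 7.88% in Tc1. Of 1340 Tc9 and 484 Tc1 barcodes with a type 2 cytokine UMI, 469 in Tc9 and 195 in Tc1 were left out at the step that asks for a Cd4 UMI, more than at any other step. Among macrophage barcodes, which should lack these transcripts, 1 of 24 in Tc9 (4.17%, 0.105 to 21.1, median 2200 UMIs) and 8 of 2908 in Tc1 (0.275%, 0.119 to 0.541, median 7361 UMIs) had one. These barcodes were chosen to have no Cd3 UMI, so their shares cannot set a background level for the gated cells. In Tc9 24 barcodes are also too few.

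Il4 was found more often than Il5 or Il13 in Tc9 members, while Il4 and Il5 were found about equally often in Tc1 members. Il4, which steers B cells and further type 2 cells, had a UMI in 370 of 588 Tc9 members (62.9%) and 45 of 97 Tc1 members (46.4%). Il5, the growth factor of eosinophils, had one in 255 Tc9 members (43.4%) and 48 Tc1 members (49.5%). Il13, which acts on epithelium and macrophages, had one in 198 Tc9 members (33.7%) and 20 Tc1 members (20.6%). As levels in CPM (UMIs of a gene scaled to the same total for every population), Il13 had 273 CPM in Tc9 members and 129 CPM in Tc1 members, Il4 had 222 and 159 CPM, and Il5 had 172 and 209 CPM. These levels rested on few cells, since the 10 highest cells held 38.9% of Il13 UMIs in Tc9 and 83.1% in Tc1.

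More than 1 of the 3 cytokines was found in 187 Tc9 members (31.8%, 28.1 to 35.7) and in 15 Tc1 members (15.5%, 8.92 to 24.2). All 3 were found in 48 Tc9 members and 1 Tc1 member. Il4 alone was the most frequent pattern in Tc9, with 223 cells, while Il5 alone (37 cells) and Il4 alone (36 cells) were about equally frequent in Tc1. Exactly 1 cytokine UMI was counted in 262 Tc9 members (44.6%) and 53 Tc1 members (54.6%), which lie just inside the rule, and the comparison cells at 0 UMIs lie just outside it. The 132 Tc9 members with 5 or more cytokine UMIs held 71.8% of the cytokine UMIs, and the 9 such Tc1 members held 39.5%. The deeper Tc9 cells had more chance to show a second cytokine, and the part of depth in this difference was not tested.

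**Figure D1:**
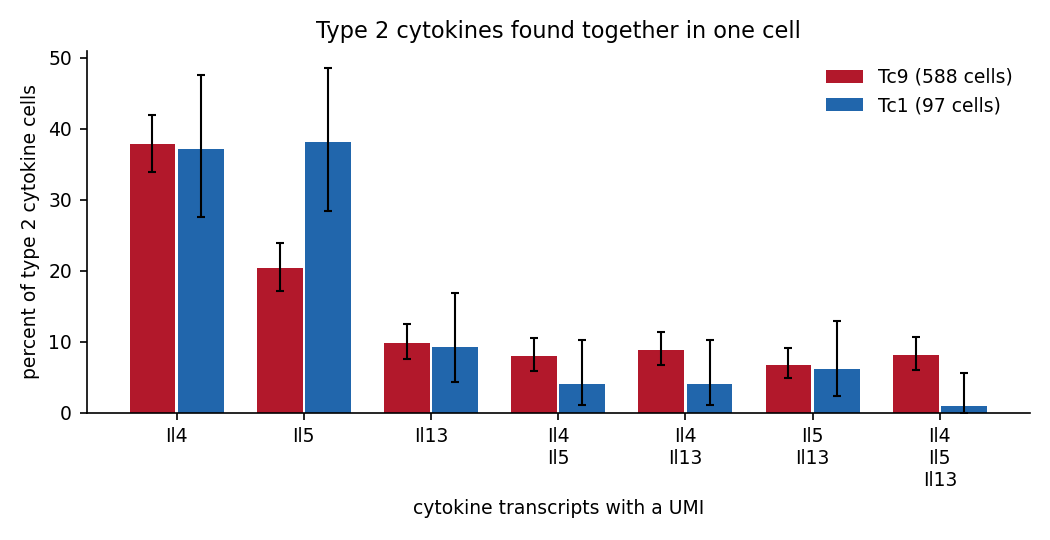
Share of type 2 cytokine cells with each combination of Il4, Il5 and Il13 (percent, bars with 95% exact intervals of counting error), 588 Tc9 cells in red and 97 Tc1 cells in blue. All 3 cytokines were found together in 48 Tc9 cells and 1 Tc1 cell, and Il5 alone took a larger share in Tc1.

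Gata3, the marker of type 2 cells that the rule did not use, was higher in members of both libraries by more than counting error. Gata3 (ENSMUSG00000015619, chr2:9857078-9887953 in GRCm38.p6) had a level of 643 CPM in Tc9 members against 339 CPM in Tc9 comparison cells (log2 ratio 0.92, 0.85 to 0.99), and 349 CPM in Tc1 members against 149 CPM in Tc1 comparison cells (1.23, 0.96 to 1.5). After thinning, 62.9% of Tc9 members and 43.7% of Tc9 comparison cells had a Gata3 UMI, a difference of 19.2 points (14.6 to 23.6). In Tc1 the shares were 41.1% of members and 23.0% of comparison cells, a difference of 18.0 points (7.49 to 29.0). The Tc1 difference was 10.3 points without cells that had any macrophage gene UMI and 27.4 points without thinning. The value of 10.3 points rests on fewer members and is given without an interval. It thus does not settle whether the Tc1 difference exceeds counting error in those cells.

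The more cytokine UMIs a Tc9 member had, the more often Gata3 was found. With 0 cytokine UMIs (comparison cells) 43.7% of Tc9 cells had a Gata3 UMI, with exactly 1 55.6%, with 2 to 4 63.0% and with 5 or more 77.3%. Il1rl1 followed the same order in Tc9, at 22.8%, 45.6%, 49.7% and 70.5%. Pparg, a lipid-sensing nuclear receptor that type 2 helper cells use, had 8.23%, 14.2%, 23.8% and 36.4%, and Areg, which encodes the tissue repair factor amphiregulin, had 12.9%, 23.0%, 28.6% and 36.4%. The members with exactly 1 UMI thus lay between the comparison cells and the members with more, and their intervals did not overlap those of the comparison cells for Gata3, Il1rl1, Pparg and Areg. In Tc1 the Gata3 shares were 23.0%, 34.0%, 45.5% and 66.7% (9 cells), with intervals that overlapped between neighbouring classes. Il1rl1 had 11.9%, 35.8%, 60.6% and 33.3% in Tc1 and Pparg 4.58%, 17.0%, 18.2% and 11.1%, so neither climbed in the last class of 9 cells. Tbx21, the transcription factor of type 1 cells, ran the other way in Tc9, at 13.8%, 11.5%, 6.88% and 5.30%.

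**Figure D2:**
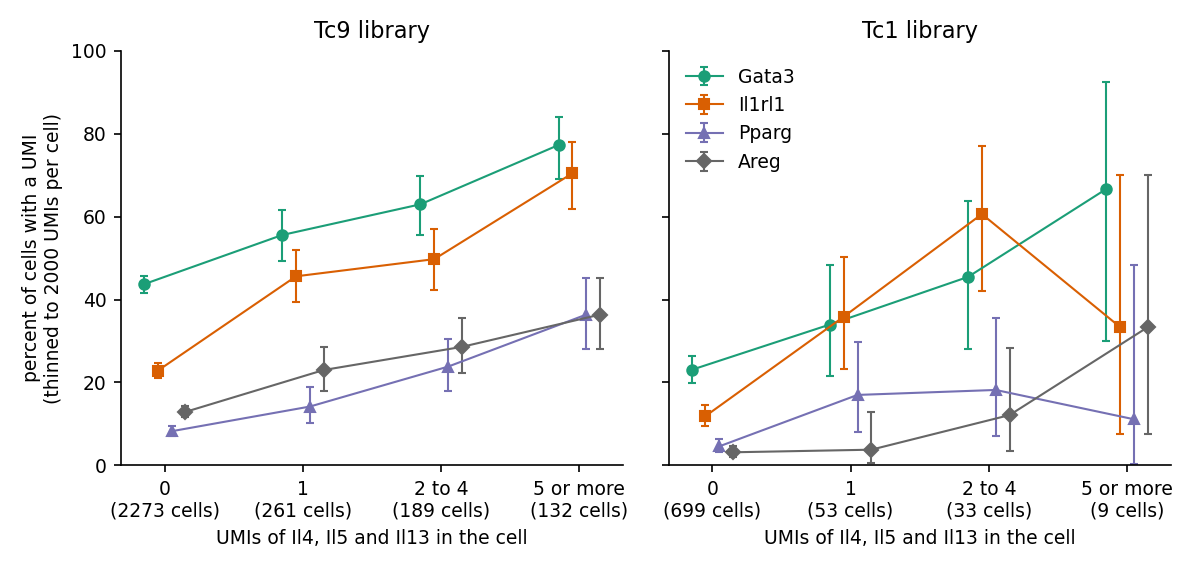
Share of cells with a UMI of Gata3, Il1rl1, Pparg or Areg after thinning to 2000 UMIs (percent, with 95% exact intervals), by the number of Il4, Il5 and Il13 UMIs in the cell, Tc9 on the left and Tc1 on the right. All 4 shares climb with the cytokine UMIs in Tc9, and the last Tc1 class holds 9 cells.

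In Tc9 the share of cells with Pparg was larger with more than 1 cytokine than with a single one. Pparg was found in 37.6% (30.7 to 45.0) of members with more than 1 cytokine, against 14.5% (10.1 to 19.8) with Il4 alone, 19.7% (12.9 to 28) with Il5 alone and 8.62% (2.86 to 19.0) with Il13 alone. Tbx21 was found in 3.76% (1.53 to 7.60) of the members with more than 1 cytokine, 7.69% (4.54 to 12.0) with Il4 alone, 17.1% (10.8 to 25.2) with Il5 alone and 10.3% (3.89 to 21.2) with Il13 alone. For Tbx21 only the interval of Il5 alone lay apart from that of cells with more than 1 cytokine. Gata3 was found in 74.7% (67.9 to 80.8) with more than 1 cytokine, 54.3% (47.5 to 61.0) with Il4 alone, 60.7% (51.2 to 69.6) with Il5 alone and 62.1% (48.4 to 74.5) with Il13 alone, with overlap for Il5 and Il13. Ccr8 did not follow this order, at 12.9%, 8.60%, 13.7% and 13.8%. The classes were chosen after the values had been seen. Cells with more than 1 cytokine have at least 2 cytokine UMIs by definition, so these classes are not independent of those by number of UMIs. In Tc1 Pparg was found in 20% (4.33 to 48.1) of 15 cells with more than 1 cytokine. There it was found in 8.57% of 35 cells with Il4 alone, 25% of 36 with Il5 alone and 11.1% of 9 with Il13 alone.

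A larger share of genes differed between members and comparison cells in Tc1 than in Tc9. At a fold of 1.5 and at least 50 CPM in either population, 106 of 2986 genes (3.55%) were higher in Tc9 members and 85 (2.85%) were lower. In Tc1, 297 of 3444 genes (8.62%) were higher in members and 341 (9.9%) lower, with far fewer cells and UMIs behind each value. Of 2814 genes above the minimum in both libraries, 68 (2.42%) were higher in members of both and 47 (1.67%) lower in both. Only Mt1 (0.0355%), a metallothionein gene, differed by 1.5-fold in opposite directions, at log2 ratios of 1.15 in Tc9 and -2.92 in Tc1, and it was singled out after its values were seen. Over the alternative settings its log2 ratio ran between 0.36 and 2.47 in Tc9 and between -4.20 and -0.73 in Tc1.

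**Figure D3:**
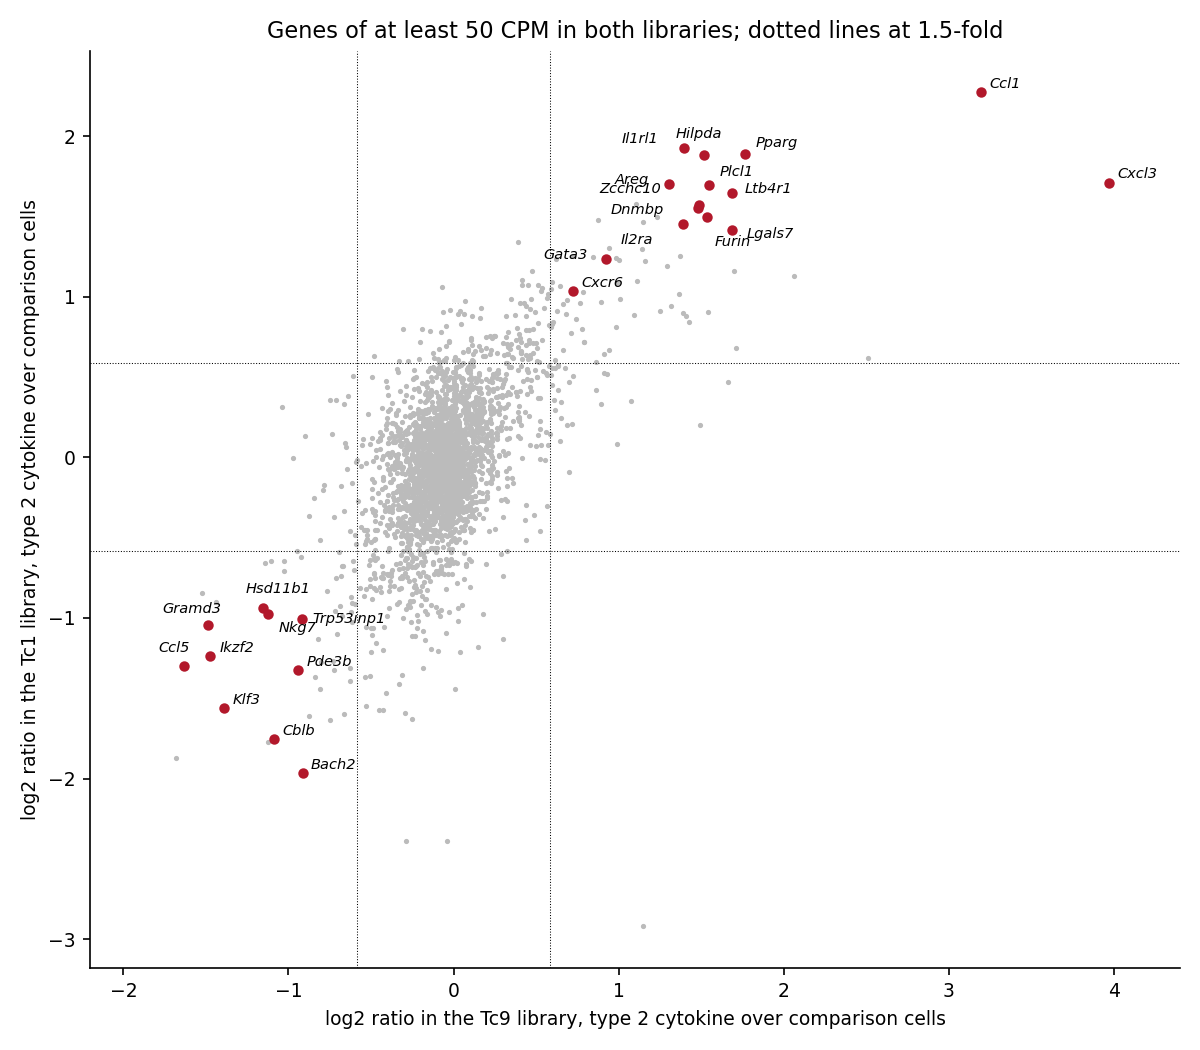
Log2 ratio of type 2 cytokine over comparison cells in the Tc9 library (horizontal axis) and in the Tc1 library (vertical axis), 1 point per gene of at least 50 CPM in both libraries, named genes in red. Ccl1 and Cxcl3 lie farthest to the right, and Bach2 and Cblb lie lowest among the named genes.

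The genes that were highest in members of both libraries included secreted signals, lipid-linked receptors and enzymes. Ccl1, the chemokine that binds CCR8, had 143 CPM in Tc9 members against 15.6 CPM in comparison cells (log2 ratio 3.19, 2.96 to 3.43) and 129 CPM in Tc1 members against 26.6 CPM (2.27, 1.76 to 2.78). A single cell held 28.2% of the Ccl1 UMIs of Tc9 members, and 10.4% of Tc9 members had any. Pparg had 178 CPM in Tc9 members against 52.5 CPM (1.77, 1.61 to 1.92) and 102 CPM in Tc1 members against 27.6 CPM (1.89, 1.34 to 2.42). Pparg and Ccl1 were thus higher in the members of both libraries by more than their counting error.

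Cxcl3, a chemokine gene for neutrophil attraction, had 66.9 CPM in Tc9 members against 4.27 CPM (3.97, 3.55 to 4.41) and 105 CPM in Tc1 members against 32.0 CPM (1.71, 1.18 to 2.23). A single cell held 37.5% of the Cxcl3 UMIs of Tc1 members. Ltb4r1, the receptor for leukotriene B4, had log2 ratios of 1.69 in Tc9 and 1.65 in Tc1. Hilpda, a lipid droplet gene induced by low oxygen, had 1.52 in Tc9 and 1.88 in Tc1. Furin, a protease that matures secreted proteins, had 1.53 in Tc9 and 1.5 in Tc1. Plcl1, Zcchc10, Dnmbp and Lgals7 completed the highest 10, with log2 ratios of 1.55, 1.49, 1.48 and 1.69 in Tc9 and 1.70, 1.57, 1.55 and 1.42 in Tc1.

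The 10 lowest genes in members of both libraries had several different known roles. Ccl5, a chemokine of effector cells, had 148 CPM in Tc9 members against 460 CPM in comparison cells (-1.64, -1.76 to -1.52) and 432 CPM in Tc1 members against 1063 CPM (-1.30, -1.51 to -1.09). After thinning, 9.45% of Tc9 members and 19.7% of comparison cells had a Ccl5 UMI. In Tc1 the shares were 33.7% and 38.6%, with an interval of the difference that included 0 (-4.94 points, -15.0 to 6.10). Nkg7, a gene of cytotoxic granules, had log2 ratios of -1.12 in Tc9 and -0.97 in Tc1. Bach2, which holds T cells back from effector differentiation, had -0.91 in Tc9 and -1.97 in Tc1. Ikzf2, the gene of Helios, had -1.48 and -1.24, the Tc1 value resting on 18 UMIs in members. After thinning, Ikzf2 was found in 6.53% of Tc9 members and 13.2% of comparison cells, and in 7.37% of Tc1 members and 7.58% of comparison cells (difference -0.21 points, -5.10 to 7.25). Klf3 had -1.39 and -1.56, and Cblb, a ubiquitin ligase that restrains receptor signalling, had -1.09 and -1.75. Gramd3, Pde3b, Hsd11b1 and Trp53inp1 completed the 10.

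Several genes of the type 2 helper list were higher in members and none was lower by 1.5-fold. Of 14 genes with at least 10 CPM, 6 were higher by 1.5-fold in Tc9 members and 0 lower, with a median log2 ratio of 0.53, against a median of -0.08 over 7540 genes, of which 3.87% were higher. In Tc1 members 9 of 14 were higher and 0 lower, with a median of 1.08 against -0.06 over 8548 genes, of which 11.5% were higher. Without cells that had any macrophage gene UMI, the Tc1 median was 0.68. The list was drawn up with earlier results of these data known and is no independent evidence.

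Among receptors of the list, Il1rl1 had 494 CPM in Tc9 members against 187 CPM in comparison cells (log2 ratio 1.40, 1.31 to 1.48) and 312 CPM in Tc1 members against 81.9 CPM (1.93, 1.62 to 2.23). Crlf2, the receptor for thymic stromal lymphopoietin, had log2 ratios of 0.50 in Tc9 and 0.71 in Tc1. Ccr8, the receptor for CCL1, had 70.1 CPM in Tc9 members against 24.9 CPM (1.49, 1.26 to 1.72), and in Tc1 50.2 CPM against 43.6 CPM with an interval that included 0 (0.20, -0.51 to 0.85). Ccr4, a chemokine receptor of type 2 cells, had an interval that included 0 in Tc9 (-0.02, -0.29 to 0.24) and a log2 ratio of 1.31 (0.69 to 1.91) in Tc1. Crlf2, Ccr8 and Ccr4 were picked from the list after their values were seen. Areg had 641 CPM in Tc9 members against 259 CPM (1.31, 1.23 to 1.38) and 170 CPM in Tc1 members against 52.3 CPM (1.70, 1.29 to 2.10). A single cell held 30.8% of the Areg UMIs of Tc1 members.

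Of the list of other T cell cytokines, 7 of 15 genes were higher and 4 lower in Tc9 members, and 8 of 14 higher and 4 lower in Tc1 members. Tnfsf8, Tnfsf11 and Csf1 were among those higher in both, with 0.72, 0.78 and 1.20 in Tc9 and 1.26, 1.03 and 0.74 in Tc1. Ccl4 and Xcl1 were among those lower in both, on few UMIs. For Ccl4 a single cell held 13 of the 16 UMIs of Tc9 members, and Tc1 members had 7. After thinning, the share of cells with Ccl4 or with Xcl1 differed by intervals that included 0 in both libraries. These 5 genes were picked after their values were seen. Il9, which names the transferred Tc9 cells, had 0 UMIs in members and comparison cells of both libraries. Il10, which dampens immune responses, had 11.4 CPM in Tc9 members against 1.45 CPM (2.97, 2.17 to 3.82), but only 3 UMIs in Tc1 members, all in 1 cell. Csf2, the gene of a growth factor for myeloid cells, had 14.0 CPM in Tc9 members against 8.08 CPM (0.79, 0.31 to 1.27) and 146 CPM in Tc1 members against 24.3 CPM (2.59, 2.09 to 3.09), with 55.2% of the Tc1 UMIs in 1 cell. Tnf had 18.6 CPM in Tc9 members against 37.7 CPM (-1.02, -1.39 to -0.67) and 85.0 CPM in Tc1 members against 59.9 CPM (0.50, -0.03 to 1.01). Il2 had -0.26 (-0.56 to 0.03) in Tc9 and 0.95 (0.26 to 1.60) in Tc1. For Tnf and Il2 1 of the 2 intervals included 0. Cd40lg, the ligand by which helper cells license other cells, had 0.47 in Tc9 and 0.44 in Tc1, and Il2ra, a chain of the interleukin 2 receptor, had 1.39 and 1.46.

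Part of the naive and memory list was lower in Tc9 members and most of it in Tc1 members. In Tc9 members 5 of 11 genes of that list were lower and 0 higher (median -0.49, against 5.15% of all genes lower), and in Tc1 members 9 of 11 were lower and 0 higher (median -1.61, against 18.7% lower). S1pr1, which lets T cells leave tissue, had -0.87 in Tc9 and -1.61 in Tc1. Of the list of type 1 and cytotoxic genes 6 of 10 were lower and 1 higher in Tc9 members (median -0.79), and 7 of 11 lower and 0 higher in Tc1 members (median -0.65). Cxcr3, a chemokine receptor of type 1 cells, had -1.44 in Tc9 and -0.90 in Tc1. Tbx21 had -0.65 (-0.87 to -0.43) in Tc9 and -0.07 (-0.53 to 0.36) in Tc1.

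**Figure D4:**
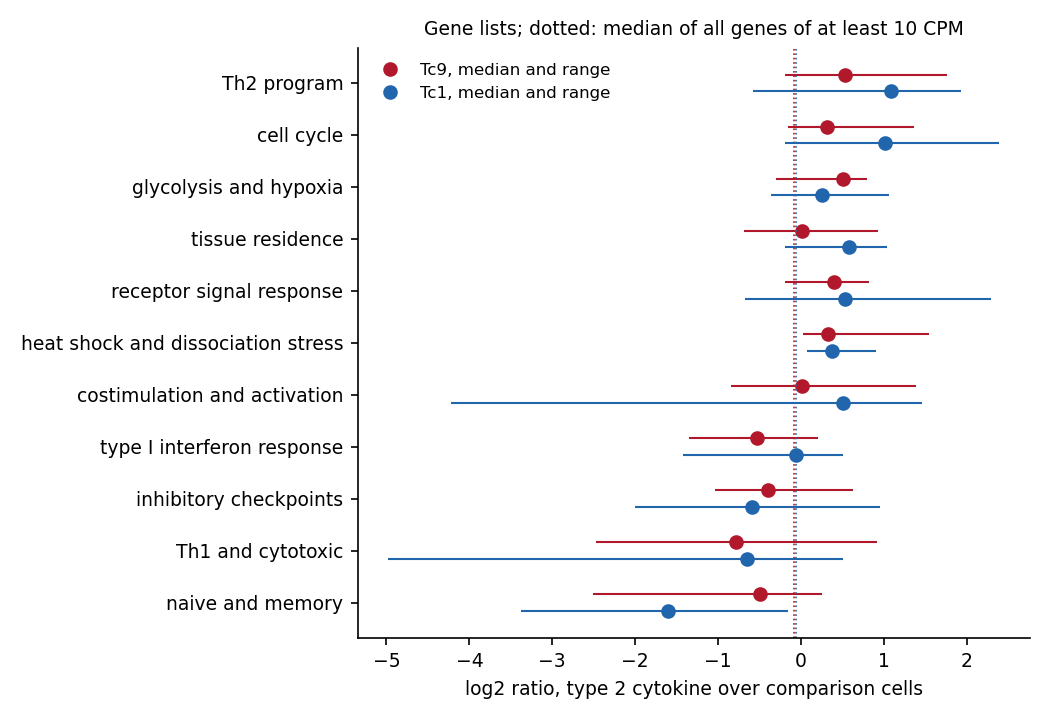
Median (points) and range (lines) of log2 ratios of type 2 cytokine over comparison cells for 11 gene lists, Tc9 above Tc1 in each pair, genes of at least 10 CPM. The type 2 helper list has medians of 0.53 in Tc9 and 1.08 in Tc1, and the naive and memory list -0.49 and -1.61.

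Of 17 glycolysis and hypoxia genes, 4 of 15 measured were higher in Tc9 members (median 0.50) and 4 of 17 in Tc1 members (median 0.25), and 0 were lower in either. Over all genes of at least 10 CPM, 3.87% were higher in Tc9 members and 11.5% in Tc1 members, against which the counts of higher genes in the lists that follow are to be read. Ldha, which makes lactate, had log2 ratios of 0.67 in Tc9 and 0.55 in Tc1, and Hk2, the first enzyme of glycolysis, had 0.80 and 1.06. In the cell cycle list 4 of 9 genes were higher in Tc9 members and 9 of 13 in Tc1 members, with 0 lower. Mki67, a marker of dividing cells, had 1.36 in Tc9 and 1.01 in Tc1, but a single cell held 37.9% of the Mki67 UMIs of Tc9 members, and after thinning 4.64% of Tc9 members and 3.39% of comparison cells had one, against 14.7% and 4.86% in Tc1. With the cytokine rule applied after thinning, the Tc9 log2 ratio of Mki67 was -0.20. Of 10 tissue residence genes 2 were higher and 1 lower in Tc9 members (median 0.01), and 5 higher and 0 lower in Tc1 members (median 0.57). Cxcr6, a receptor that keeps T cells in tissue, had 0.73 (0.64 to 0.81) in Tc9 and 1.03 (0.82 to 1.24) in Tc1.

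The type I interferon response list had 6 of 13 genes lower in Tc9 members (median -0.53) and 3 of 20 in Tc1 members (median -0.06), with 0 higher. Over all genes 5.15% were lower in Tc9 and 18.7% in Tc1, so the Tc1 count lay below the share of all genes. Genes that respond to receptor signals were higher for 4 of 14 in Tc9 members, with 0 lower, and for 7 of 14 in Tc1 members, with 1 lower. Inhibitory checkpoint genes were higher for 1 and lower for 2 of 8 in Tc9 members, and higher for 2 and lower for 4 of 8 in Tc1 members. Heat shock and dissociation genes were higher for 3 of 10 in Tc9 members and 2 of 10 in Tc1 members, with 0 lower. Costimulation genes were higher for 2 and lower for 1 of 13 in Tc9 members, and higher for 3 and lower for 1 of 13 in Tc1 members.

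Markers of other cell types stood beside these results. The macrophage list summed to 22.5 CPM in Tc9 members against 41.6 CPM in comparison cells, and to 512 CPM in Tc1 members against 708 CPM. Melanoma genes summed to 2.66 CPM in Tc9 members against 1.98 CPM, and to 113 CPM in Tc1 members against 614 CPM. In Tc1 a single comparison cell held 50.4% of the melanoma UMIs of the comparison cells. The share of cells with a melanoma UMI, not thinned, was 32.0% of Tc1 members and 25.4% of Tc1 comparison cells. Red cell genes summed to 0 in Tc9 members against 1.30 CPM, and to 11897 CPM in Tc1 members against 3321 CPM, with 5422 of the 5456 UMIs of Tc1 members in 1 cell. Of the red cell UMIs of Tc1 comparison cells, 73.4% were in 1 cell. A single cell also held 67.2% of the dendritic cell UMIs of Tc1 members. Of 9 basophil and mast cell genes, 5 had 0 UMIs in Tc9 members and 7 in Tc1 members, and Hdc, the histamine enzyme, was the 1 gene of the list above 10 CPM. Hdc had 32.1 CPM in Tc9 members against 7.78 CPM (2.05, 1.66 to 2.43), and 45.8 CPM in Tc1 members against 24.3 CPM (0.91, 0.14 to 1.63). Gamma-delta T cell genes were found in 9.86% of Tc9 members and 3.53% of comparison cells (19.6 CPM against 10.7 CPM), and in 4.12% of Tc1 members and 2.58% of comparison cells (13.1 CPM against 8.33 CPM). Of that list Tcrg-C2 was the 1 gene above 10 CPM, with a log2 ratio of 1.20 in Tc9. Without cells that had haemoglobin UMIs, a choice made after the data were seen, 412 genes were higher in Tc1 members, against 297 with them. The part of these other cell types in the results was not tested.

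The members of the 2 libraries differed from each other, but so did their comparison cells. Between Tc9 and Tc1 members 407 of 3313 genes (12.3%) were higher by 1.5-fold in Tc9 and 639 (19.3%) lower. Gata3 was higher in Tc9 members than in Tc1 members (log2 ratio 0.88, 0.65 to 1.12), and by 1.19 in the comparison cells. Areg was higher by 1.91 (1.59 to 2.26) in members and by 2.31 in comparison cells, and Icos, a costimulatory receptor, by 2.05 (1.60 to 2.54) and 1.82. Il1rl1 was higher by 0.66 (0.42 to 0.92) in members and by 1.19 in comparison cells. Hlf, a transcription factor gene, had 140 CPM in Tc9 members and 21.8 CPM in Tc1 members (2.68, 1.80 to 3.75), with 2.08 in comparison cells. Hlf was also higher in members than in comparison cells, by 2.55 (2.35 to 2.75) in Tc9 and 1.95 (0.66 to 3.15) in Tc1. Abcg1, a cholesterol transporter gene, had the highest ratio of members (2.75, 1.37 to 4.63), with 1.46 in comparison cells, but only 4 Abcg1 UMIs were counted in Tc1 members. Haemoglobin genes, receptor segments, genes of the membership rule and predicted genes were left out of this ranking, and Hbb-bs, at 0 UMIs in Tc9 members and 9119 CPM in Tc1 members, would have been lowest. The 10 lowest of the other genes of at least 50 CPM were mostly genes of myeloid, tumour and red cells, such as Tyrobp with -5.20 (-6.25 to -4.27) in members and -3.12 in comparison cells. In Tc1 members a single cell held all 23 Alas2 UMIs and all 27 Ccl22 UMIs, 79.1% of the Il1b UMIs and 64.9% of the H2-Aa UMIs. Csf2 was lower in Tc9 members (-3.38, -3.91 to -2.85), as was Pdcd1, the gene of PD-1 (-2.37, -2.80 to -1.93). Type I interferon response genes were lower in Tc9 members for 16 of 19 genes (median -1.77), and glycolysis and hypoxia genes for 14 of 17 (median -1.45), against 27.8% of 8126 genes. These lists were not counted between the comparison cells, so whether the differences are particular to members was not tested. Library, pool of mice and treatment cannot be told apart in these differences.

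Members were also set against cells that passed the other steps of the gate but had an Ifng UMI and no type 2 cytokine UMI (677 in Tc9, 173 in Tc1). Gata3 was higher in members by 1.44 in Tc9 and 1.17 in Tc1, Il1rl1 by 2.91 and 2.25, and Pparg by 3.74 and 2.35 (log2 ratios). Ccl5 had -3.13 in Tc9 and -2.87 in Tc1, and Nkg7 had -2.37 and -2.54. Cells with both Ifng and a type 2 cytokine numbered 104 in Tc9 and 31 in Tc1, and after thinning 52.4% of those in Tc9 had a Gata3 UMI, against 62.9% of members and 35.9% of Ifng cells.

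Members belonged to expanded clones more often than comparison cells, by a readout that the rule did not use. A clonotype (alpha and beta chain pair) of at least 3 cells in the library was called expanded. In Tc9 128 of 153 members with a pair (83.7%) and 391 of 590 comparison cells (66.3%) were in expanded clonotypes, a difference of 17.4 points (9.57 to 24.2). In Tc1 14 of 21 members (66.7%) and 114 of 292 comparison cells (39.0%) were, a difference of 27.6 points (3.28 to 47.2). In Tc1 the difference was 45.3 points when 2 cells were enough, and 16.5 points with members of at least 2 cytokine UMIs. The latter value rests on fewer than the 21 members above and is given without an interval, so it does not settle whether the difference holds there. By the beta chain alone, which more cells had, the shares were 94.6% of members and 78.0% of comparison cells in Tc9, and 81.6% and 46.6% in Tc1. The intervals treat cells of 1 clone as independent and are too narrow.

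The share of type 2 cytokine cells ran from 0 to 63.6% between Tc9 clones. Clones were here taken by the beta chain alone, with a minimum of 10 gated cells, both set after the data were seen. Of 31 such clones in Tc9 the median share of members was 20% and 3 clones had none, against 20.3% of all gated cells with 1 beta chain. Tc9 clone 1 had 38 members among 104 gated cells (36.5%, 27.3 to 46.6), Tc9 clone 2 had 28 of 75 (37.3%, 26.4 to 49.3) and Tc9 clone 3 had 23 of 51 (45.1%, 31.1 to 59.7). A TRBV10 clone had 0 of 31 (upper limit 11.2%) and 7 Ifng cells. The clones were ranked by their number of members, so these shares are a description of the extremes. In Tc1 5 clones qualified, with shares of 7.14% to 23.1%, and Tc1 clone 1 had 8 members among 42 gated cells (19.0%, 8.60 to 34.1).

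**Figure D5:**
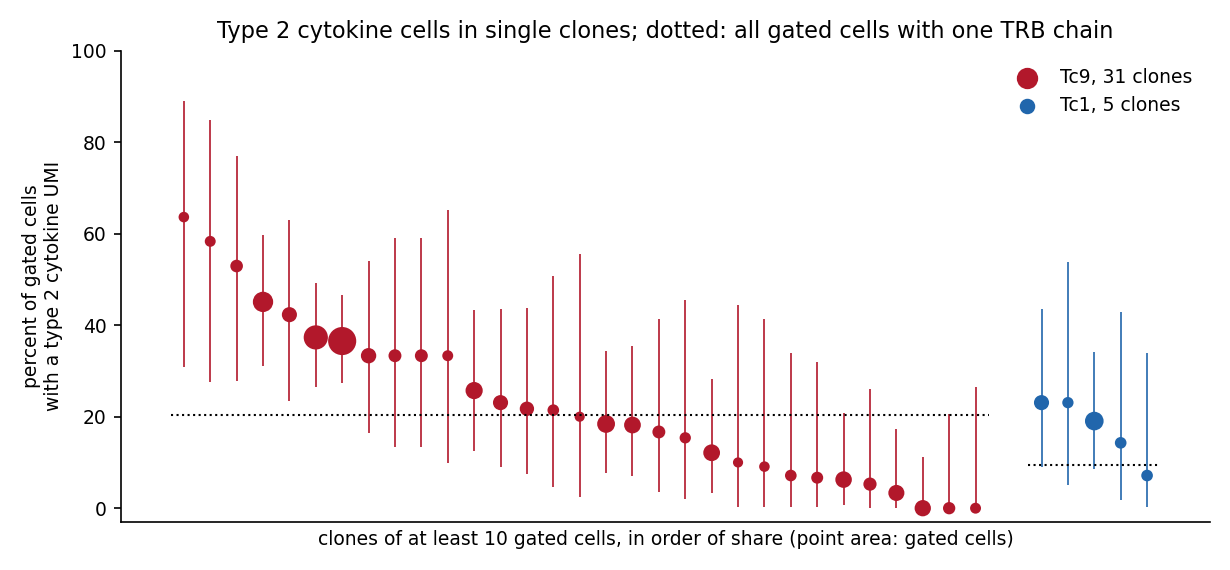
Percent of gated cells with a type 2 cytokine UMI in each clone of at least 10 gated cells (points, area by gated cells, with 95% exact intervals), 31 Tc9 clones in red and 5 Tc1 clones in blue. Tc9 clones run from 63.6% to 0, and dotted lines mark 20.3% in Tc9 and 9.51% in Tc1 for all gated cells with 1 beta chain.

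By V segment, TRBV31 made up 16.8% of Tc9 members with 1 beta chain and 9.38% of comparison cells, a difference of 7.39 points (3.07 to 12.2), while TRBV16 made up 1.58% and 5.74% and TRBV10 1.90% and 5.58%. Each of these shares rests in part on a few large clones. With each distinct beta chain counted once, TRBV31 made up 13.7% of chains in Tc9 members and 8.52% in comparison cells. TRBV16 then made up 3.92% and 3.16%, and TRBV10 3.92% and 4.14%, so their lower shares in members were not seen by chains. In Tc1 TRBV3 made up 32.7% of members and 21.5% of comparison cells, with an interval of the difference that included 0 (-2.13 to 26.5). By distinct chains its shares were 12.1% and 10.4%. The intervals of V segments treat cells of 1 clone as independent and are too narrow.

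Many clones that held members also held other CD4 T cells, inside or outside the gate. Of 102 beta chains found in Tc9 members 84 were also found in comparison cells. Outside the gate, 53 were found in cells with an Ifng UMI, with or without a type 2 cytokine UMI, and 19 in Foxp3 cells. Of 33 chains in Tc1 members these numbers were 22, 14 and 2. Chains absent from members were not counted in this way, so whether the overlap is particular to members was not tested. Cells with 1 beta chain were 316 members and 1237 comparison cells in Tc9, and 49 and 466 in Tc1. The chain of Tc9 clone 3 occurred with a further TRBV31 chain in 52 barcodes, and 43 of 96 gated cells with either chain (44.8%) were members. A TRBV14 chain with TRBJ1-6 was found in 487 Tc9 and 59 Tc1 barcodes, and TRBV14 is the V segment of the Pmel-1 receptor's beta chain. It was found in 11 members and 15 comparison cells in Tc9, and in 0 members and 1 comparison cell in Tc1, all with a Cd4 UMI and no Cd8a or Cd8b1 UMI.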

How the data were processed

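RNA and receptor libraries of tumour cells sorted for CD4 T cells (10x 5′ v2 chemistry) were deposited by the authors. They came, per the submitters' processing notes after Cell Ranger 7.0.0 and an mm10 reference, as counts of UMIs per gene and barcode and as receptor contigs. The counter's further settings are not given in the sources used here. The rule's floor of 500 genes per barcode and ceiling of 10% mitochondrial UMIs were applied first. No doublet caller was run, and leaving out barcodes with 2 productive TRB chains was an alternative. UMIs were summed per population and expressed as CPM. Log2 ratios had exact conditional intervals, shares Clopper-Pearson and differences of shares Newcombe intervals, at 95%. Genes with at least 50 CPM in either population were counted at a fold of 1.5, list genes from 10 CPM, with a floor of 3 counts for genes at 0. Shares were thinned to 2000 UMIs per cell with seed 1. Ratios, intervals and thinning were tested on simulated data. Python 3.11.15, numpy 2.4.6, scipy 1.17.1, pandas 2.3.3 and matplotlib 3.10.9 were used.

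Named genes were the 10 highest and 10 lowest by the smaller of the 2 libraries' ratios, the 10 highest and 10 lowest of Tc9 over Tc1 members, up to 4 per list, and markers. The rankings left out the membership genes, receptor and immunoglobulin segments, mitochondrial, haemoglobin and predicted genes. Not all of these are printed. Members and lists were chosen with earlier results of these data known. Beta-chain clones, classes by cytokine UMIs, promoter windows, the macrophage control and 2 alternatives were chosen after the data were seen. No test between groups was possible, as neither had a replicate.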

Additional observations from a re-analysis of the deposited data

Results flagged for a closer look

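Slc7a5, the gene of an amino acid transporter, stood out because its 2 log2 ratios had opposite signs, with both counting intervals off 0. It was higher in Tc9 members than in Tc9 comparison cells, with a log2 ratio of 0.38 (0.16 to 0.59), and lower in Tc1 members than in Tc1 comparison cells, with -1.29 (-2.77 to -0.11). The Tc1 value rested on 6 UMIs in 5 cells. The difference between the libraries was not tested.
Mt1, a metallothionein gene, was likewise higher in Tc9 members, with a log2 ratio of 1.15 (0.90 to 1.39), and lower in Tc1 members, with -2.92 (-3.42 to -2.46). It rested on 236 UMIs in Tc9 members and 39 UMIs in Tc1 members, and the difference between the libraries was not tested.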

How the results depend on the processing

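No paired analysis was possible because each group had 1 library. Of 168 values of the main comparisons under alternatives, 148 stayed within their counting interval or within 1.5 times the main count. No difference of shares and no median changed sign, while counts of genes have no direction that could change. Staying within an interval says little where it is wide. In Tc1 the difference in expanded clonotypes went from 27.6 to 45.3 points and still lay within its interval (3.28 to 47.2). With cells of 0 macrophage gene UMIs, 504 genes were higher in Tc1 members. With at least 2 cytokine UMIs, 164 genes were higher and 146 lower in Tc9 members, 550 higher and 530 lower in Tc1 members, and the Gata3 share differed by 25.2 points in Tc9. With the cytokine rule after thinning, the share of members differed by 4.20 points and 554 genes were higher in Tc1 members. At a minimum of 20 CPM, 182 genes were higher and 203 lower in Tc9 members, 624 and 975 in Tc1 members, and 717 and 1432 in Tc9 over Tc1 members. At a fold of 2 these counts were 43 and 19, 79 and 117, and 119 and 224.

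Of 214 called log2 ratios of single genes, recomputed under 13 settings, 32 of 2711 values changed sign and 117 fell under the fold. In Tc1 members over comparison cells, Ccl22, Il1b and H2-Aa had -1.24, -0.83 and -0.90 with macrophage UMIs at 0. Alas2, Ccl22, Il1b, H2-Aa and H2-Eb1 had -0.084, -1.10, -2.21, -1.96 and -2.03 with at least 2 cytokine UMIs, and -0.78, -1.58, -3.67, -2.19 and -1.94 with the rule after thinning. Il1b had -0.62 in barcodes with a beta chain. Dct, Ccl22 and Il1b had 0.28, -1.33 and -0.36 with cells of equal weight. Il1b, H2-Aa, Egr3 and H2-Eb1 had -1.50, -0.033, -0.093 and -0.57 without haemoglobin cells. In Tc9 members over comparison cells, Mki67 had -0.20 with the rule after thinning. In Tc9 over Tc1 members, Il10 had -0.41 with macrophage UMIs at 0, and Cd27, Egr3 and Il10 had -0.82, -0.22 and -0.22 with at least 2 cytokine UMIs. There Il1b, Egr3 and Il10 had 0.72, -0.16 and -0.78 with the rule after thinning, and Xcl1, Cd27 and Egr3 had 0.64, -0.10 and -0.070 in barcodes with a beta chain. The cause was not tested. The Tc1 values rest on 97 members.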
